A study of Homo sapiens with 519 samples.

Results

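Alisertib, also named MLN8237, is an inhibitor of the mitotic kinase Aurora A. Its name stood in the labels of 17 of the 519 libraries of the series, and those 17 libraries, from 3 experiments, are described here. All of them came from the neuroblastoma cell line SK-N-BE(2), of human origin and MYCN-amplified by its label, treated in wells and profiled by PLATE-seq, a pooled RNA-seq method in which each well carries its own barcode. In the third experiment 3 wells received Alisertib at 5 for 24 h, set against 9 wells with DMSO, the solvent at 0.1%. In the second experiment MLN8237 was given at 10 and at 3.33 for 24 h and for 6 h, with 3 wells for each, set against the 6 wells labelled control at the same time. In the first experiment 2 wells received MLN8237 at 10 for 24 h, 1 on each of 2 plates, set against 8 DMSO wells, 4 on each plate. The protocol speaks of 6 DMSO wells, and the labels were followed. Wells of other compounds were also used for comparison, with 3 wells of each at 24 h. They were Palbociclib at 10 and PF-47776 at 1.6 in the third experiment, and Podofilox at 1 in the second. The labels give the dose in mM in the second experiment and with no unit in the other two, so doses are written as plain numbers and were not matched between experiments. Nothing in the labels says whether the wells of a group were separate cultures, so the p-values measure the spread between wells, which may be technical.

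Aurora A, encoded by AURKA (chr20:56369390-56392215, GRCh38.p14), matures centrosomes, builds the spindle poles and helps to switch on PLK1 at the entry into mitosis. Cyclin B with CDK1 drives that entry, and the anaphase-promoting complex with CDC20 ends mitosis by having cyclin B and securin destroyed. The transcripts of these genes accumulate together in G2 and mitosis, through the DREAM and MuvB complexes with MYBL2 and FOXM1. In neuroblastoma Aurora A is also known for binding the MYCN protein and shielding it from destruction, a step on the protein that mRNA counts do not show.

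Promoters of 4 genes that the results turn on are shown first, because late cell cycle promoters commonly carry boxes bound by the factor NF-Y and the cell cycle genes homology region. Each run is the 250 bases before the RefSeq start of transcription (GRCh38.p14), 5′ to 3′ on the gene's strand, with matches on either strand in capitals. The letters searched were CCAAT for the NF-Y box, TTTGAA for the homology region and TTCGAA as a variant of the region.
CCNB1, chr5:69166900-69167149, plus strand: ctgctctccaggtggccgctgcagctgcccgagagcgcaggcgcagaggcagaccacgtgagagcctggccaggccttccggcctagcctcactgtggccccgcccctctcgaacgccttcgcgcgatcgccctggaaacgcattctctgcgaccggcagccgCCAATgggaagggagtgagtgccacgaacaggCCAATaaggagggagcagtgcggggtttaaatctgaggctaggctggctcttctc
CCNB2, chr15:59104896-59105145, plus strand: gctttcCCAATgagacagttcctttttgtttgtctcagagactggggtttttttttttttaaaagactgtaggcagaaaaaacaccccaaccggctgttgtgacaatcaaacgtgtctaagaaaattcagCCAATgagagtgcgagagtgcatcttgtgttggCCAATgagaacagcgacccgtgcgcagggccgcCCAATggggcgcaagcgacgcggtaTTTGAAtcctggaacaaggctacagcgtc
CDC20, chr1:43358731-43358980, plus strand: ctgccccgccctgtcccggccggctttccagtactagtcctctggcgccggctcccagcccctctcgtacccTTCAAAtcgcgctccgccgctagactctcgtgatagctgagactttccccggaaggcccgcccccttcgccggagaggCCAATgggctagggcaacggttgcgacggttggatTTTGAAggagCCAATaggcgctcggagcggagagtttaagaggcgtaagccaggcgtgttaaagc
PLK1, chr16:23678639-23678888, plus strand: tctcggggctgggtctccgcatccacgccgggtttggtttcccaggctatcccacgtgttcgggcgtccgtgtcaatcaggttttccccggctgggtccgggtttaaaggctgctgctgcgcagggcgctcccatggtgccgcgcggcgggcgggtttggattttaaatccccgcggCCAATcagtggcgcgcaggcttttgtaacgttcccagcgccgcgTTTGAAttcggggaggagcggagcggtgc
Of the 72 genes of the mitosis list used here, 59 had a promoter in the RefSeq table. CCAAT stood in 74.6% of those 59, against 33.0% of the 27305 promoters of the table. TTTGAA stood in 57.6% of the 59 and in 13.6% of all promoters, and TTCGAA, which the search counts apart from TTTGAA, in 5.08% and 1.2%. CCAAT together with either of the other motifs stood in 49.2% of the 59 and in 5.24% of all promoters. A match is a run of letters and not a bound site.

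The 17 alisertib libraries held 933229 to 2734048 counts (median 1342601), against 1031590 to 5263249 (median 2014979) in the 29 control libraries. In the second experiment at 24 h the libraries at 10 held 933229 to 1356144 counts and the controls 1541946 to 1901416, and the part of this gap in the results was not tested. The adrenergic transcription factor GATA3 had 402, 326 and 336 CPM (counts scaled to the TMM-adjusted library size) in the 3 libraries at 10 at 24 h, all above the 235 to 296 CPM of controls, and was not called (0.38 ± 0.15, adjusted p = 0.29). The adrenergic identity list as a whole did not rise in that comparison: 10 of 19 tested genes lay above 0, with a median log2 change of 0.02 and no call. Of 16 markers of other cell types, among them CD3E and KRT5, 4 were at 0 in every library of the third experiment's comparison, 11 in that of the second experiment at 10 and 24 h, and 7 in that of the first. Their summed level, mostly COL1A1, which neuroblastoma cells can also express, is given per library total. In the third experiment it was 205, 203 and 68.1 CPM with Alisertib, with only replicate 3 outside the 196 to 302 CPM of DMSO. At 24 h in the second it was 1253 to 1369 CPM at 10, above the 984 to 1246 CPM of controls, and 1019 to 1619.5 CPM at 3.33, overlapping them. In the first it was 499 and 459 CPM with MLN8237, against 447 to 596 CPM with DMSO. The part of these levels in the results was not tested.

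One library stood apart. The library labelled Alisertib replicate 3 of the third experiment had 3538 CPM of VGF, a neuropeptide precursor, against 89.0 and 79.8 CPM in Alisertib replicates 1 and 2 and 99.6 to 163 CPM in DMSO. The 3 wells labelled PF-47776, another compound of the same experiment, had 4083, 3988 and 3179 CPM. NPY was at 963 CPM in that library, against 72.8 and 109 CPM in replicates 1 and 2, and CDKN1A at 45.4 CPM, against 3.68 and 3.61 CPM. Over 5318 genes its deviations from the mean of all groups correlated best with PF-47776 replicate 1 (r = 0.291), while r was 0.083 with Alisertib replicate 1 and -0.003 with replicate 2. Replicates 1 and 2 correlated with each other at r = 0.312. Each of them also had another compound's well as its nearest library (Dasatinib at 5, replicate 2, r = 0.332, and 43-19 at 20, replicate 1, r = 0.433). In 27 of 9792 genes the level in replicate 3 was at least 5 times that of every other Alisertib and DMSO library, and the same count was 10 for replicate 1 and 6 for replicate 2. Whether the label of that library is right cannot be told from the files, and the values of the third experiment over all wells carry that doubt. Its results are therefore given with and without that library.

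AURKA, the gene of the drug's own target, was raised at 24 h in the second experiment and in the third. In the second its level was 177, 185 and 204 CPM at 10 and 153, 123 and 180.0 CPM at 3.33, against 80.1 to 101 CPM (median 83.5) in the 6 controls. All 6 treated libraries lay above every control. At 10 the log2 change was 1.1 ± 0.21 (SE, n = 3 and 6; edgeR quasi-likelihood adjusted p = 0.00064), and the call held when any 1 library was left out. At 3.33 it was 0.78 ± 0.21 (adjusted p = 0.095). With Alisertib in the third experiment AURKA had 67.7, 111 and 36.8 CPM, against 29.4 to 49.9 CPM (median 33.9) with DMSO. Replicate 3 lay inside the DMSO range and the other two above it. The log2 change was 0.98 ± 0.21 (adjusted p = 0.0023) over all libraries and 1.29 ± 0.22 (adjusted p = 0.00018) without replicate 3. Without replicate 2 the adjusted p was 0.29. In the first experiment AURKA was at 126 CPM on plate 1, where DMSO wells had 49.6 to 127 CPM, and at 147 CPM on plate 2, where they had 90.7 to 195 CPM. Both wells lay within the DMSO range of their plate (log2 change 0.37 ± 0.33, adjusted p = 0.76).

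CCNB1 encodes cyclin B1 (chr5:69167150-69178245), the partner of CDK1 at mitotic entry. It had 576, 480.2 and 569.6 CPM at 10 and 584, 553 and 657 CPM at 3.33 at 24 h in the second experiment, against 216 to 306 CPM (median 289) in controls. Every treated library lay well above every control, and the levels at 10 and 3.33 overlapped. The log2 changes were 0.96 ± 0.15 at 10 (adjusted p = 8.3e-06) and 1.1 ± 0.15 at 3.33 (adjusted p = 3.4e-07), and both held when any 1 library was left out. In the third experiment the levels were 414, 354 and 128 CPM with Alisertib, against 208 to 275 CPM (median 226) with DMSO. Replicates 1 and 2 were above all DMSO wells and replicate 3 was below all of them. CCNB1 was not called over the 3 libraries (0.35 ± 0.18, adjusted p = 0.35) and was called without replicate 3 (0.71 ± 0.18, adjusted p = 0.035). The first experiment gave 214 CPM on plate 1, against 130.4 to 181 CPM with DMSO, and 153 CPM on plate 2, against 81.4 to 114 CPM. Each well was above the DMSO wells of its own plate, and the change did not pass the test (0.57 ± 0.19, adjusted p = 0.20).

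PLK1 encodes the Polo-like kinase that Aurora A activates (chr16:23678889-23690367). At 24 h in the second experiment it had 93.5, 75.7 and 52.1 CPM at 10, against 20.8 to 48.7 CPM (median 26.7) in controls. The groups did not overlap, and the log2 change was 1.24 ± 0.28 (adjusted p = 0.013). The call was lost without replicate 1 (adjusted p = 0.19) or replicate 2 (adjusted p = 0.12) of the treated wells. At 3.33 the levels were 47.7, 47.5 and 19.2 CPM, 2 of them within the control range and 1 just below it (0.31 ± 0.32, adjusted p = 0.83). PLK1 in the third experiment was at 46.0, 34.7 and 17.7 CPM with Alisertib, against 19.7 to 32.2 CPM (median 24.5) with DMSO (0.43 ± 0.23, adjusted p = 0.39, and 0.71 ± 0.26, adjusted p = 0.27 without replicate 3). In the first it was at 721 CPM on plate 1 (DMSO 585 to 737 CPM) and 1829 CPM on plate 2 (DMSO 1074 to 1529 CPM), with a log2 change of 0.39 ± 0.22 (adjusted p = 0.57). PLK1 was thus far higher in the DMSO wells of the first experiment than in the controls of the others. It made up 9.67% of the summed mitosis level there, and the source of that gap was not tested.

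**Figure D1:**
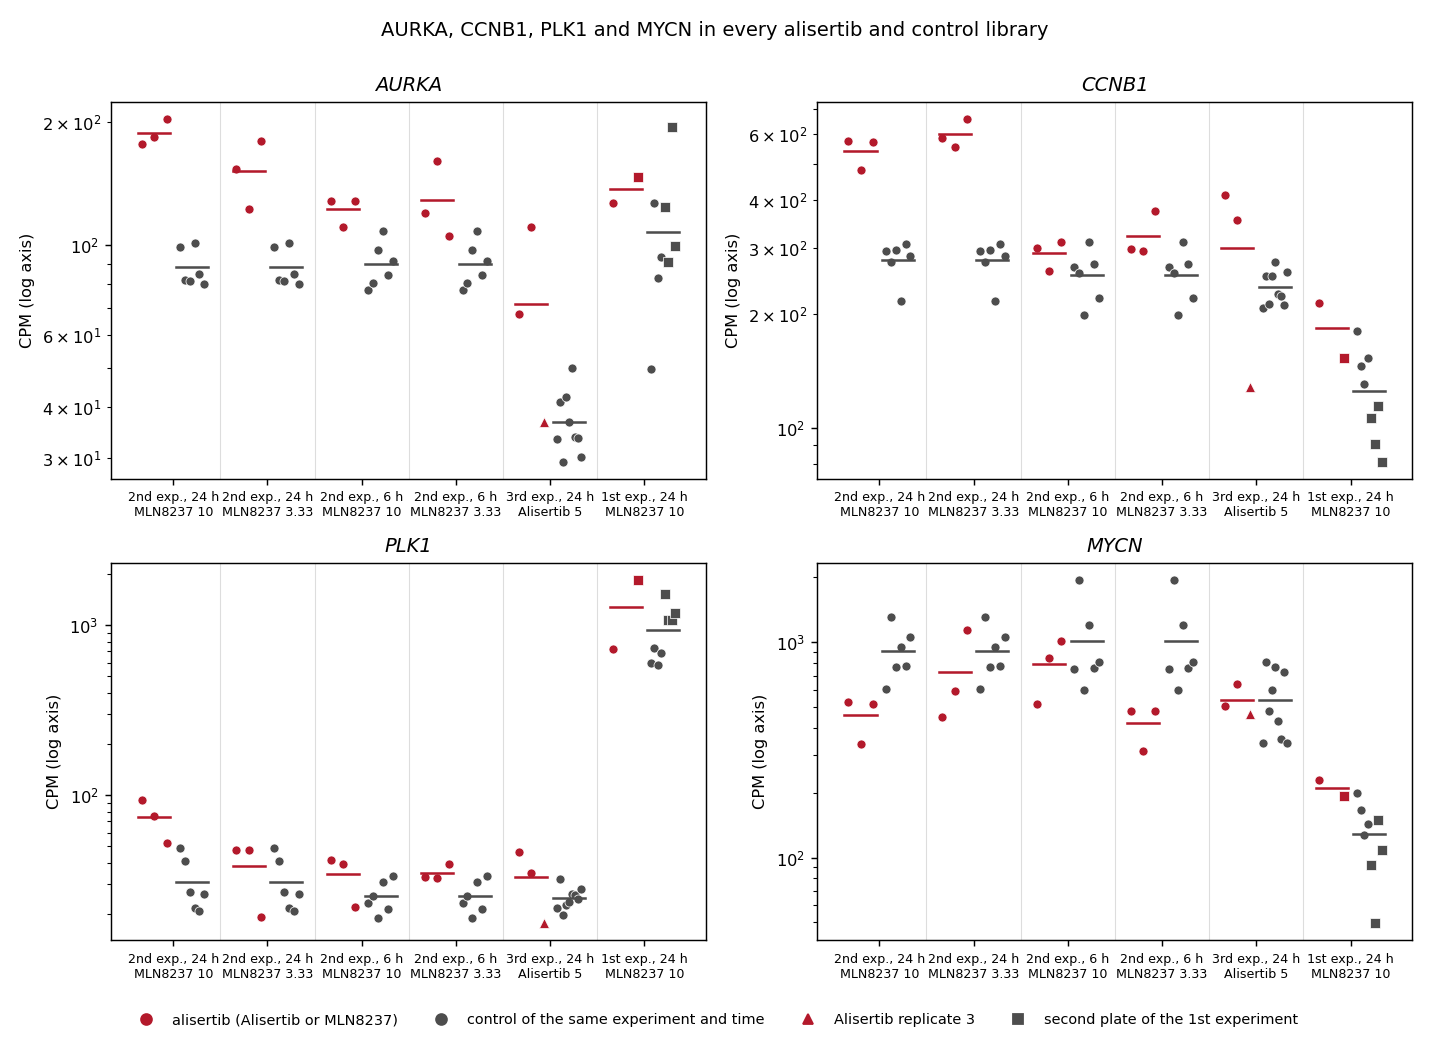
Level of AURKA, CCNB1, PLK1 and MYCN in every alisertib library and every control library (CPM, log axis), with each treated group left of its control. Lines are group means, the triangle is the library labelled Alisertib replicate 3 and squares are wells on the second plate of the first experiment. At 24 h in the second experiment the AURKA and CCNB1 points at both doses lie above all 6 controls, while MYCN points of treated and control wells spread over overlapping ranges in most groups.

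More mitosis genes lay above 0 than below it at 24 h in all 3 experiments, and most of the calls among them were rises. At 10 in the second experiment 14 of 71 tested members of the mitosis list rose and none fell, against 40 rises and 15 falls among all 11539 genes tested (0.347% and 0.13%, or 0.477% in all); groups did not overlap in 5.73% of those genes. The median log2 change of the list was 0.55, with 63 of 71 members above 0, and the median of all genes was -0.02. The summed level of the list was 16492 to 19151 CPM at 10 and 15039 to 17444 CPM at 3.33, against 10840 to 11976 CPM in controls. PTTG1 was its largest contributor (10.8% of the control sum), and without it the sum was 14340 to 16972 CPM at 10 and 9576 to 10822 CPM in controls. In bulk wells, more cells in G2 and mitosis and more RNA per such cell cannot be told apart.

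By role, 3 of 9 genes of the Aurora A module rose at 10 at 24 h (AURKA, PLK1 and HMMR), with a median log2 change of 0.50 for the module. HMMR, a spindle protein that brings TPX2 to the poles, had 175, 221 and 227 CPM, against 82.4 to 129 CPM (median 105) in controls (0.97 ± 0.20, adjusted p = 0.0024). Its groups did not overlap, and the call was lost without replicate 2 of the treated wells (adjusted p = 0.057). Among 13 genes of mitotic entry, CCNB1 and CCNB2 rose (median 0.40). CCNB2, cyclin B2, had 313, 373 and 391 CPM, against 175 to 253 CPM (median 195) in controls (0.84 ± 0.18, adjusted p = 0.0080). It was no longer called without replicate 2 (adjusted p = 0.082) or replicate 3 (adjusted p = 0.062).

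The 13 genes of the spindle checkpoint and the anaphase-promoting complex had a median of 0.60, and CDC20, PTTG1 and UBE2C rose. CDC20, the activator of that complex, had 266, 240.4 and 221 CPM at 10, against 89.9 to 167 CPM (median 101) in controls (1.12 ± 0.20, adjusted p = 0.00026). UBE2C, its ubiquitin-conjugating enzyme, had 815, 674 and 784 CPM, against 288 to 457 CPM (median 423) (0.95 ± 0.17, adjusted p = 0.00038). Neither group of treated wells overlapped its controls. PTTG1 encodes securin (chr5:160421855-160428744), the guard of sister chromatid cohesion, and near-identical pseudogenes could share its reads. It had 2153, 2293 and 2179.6 CPM, against 1129.9 to 1272 CPM (median 1217) in controls (0.87 ± 0.13, adjusted p = 6.9e-06). The 3 treated wells stood close together and far above the controls.

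Of 18 spindle and cytokinesis genes, KIF2C, NEK2, NUSAP1 and DLGAP5 rose at 10, and the 18 had the highest median of the 7 roles in that comparison (0.76). KIF2C, a kinesin that depolymerises microtubules at centromeres, had 304, 263 and 215 CPM, against 49.8 to 143 CPM (median 113) in controls (1.28 ± 0.22, adjusted p = 0.0001). NEK2, which loosens the link between centrosomes, had 76.3, 80.9 and 116 CPM, against 24.8 to 51.9 CPM (median 37.6) (1.27 ± 0.28, adjusted p = 0.0096). Both were non-overlapping, and NEK2 was lost without replicate 3 (adjusted p = 0.18). DLGAP5, a spindle protein that Aurora A phosphorylates, had 68.8, 117 and 397 CPM, against 38.0 to 61.1 CPM (median 45.7), and 1 well carries most of that change. Its log2 change was 2.03 ± 0.26 (adjusted p = 5.8e-08) over all wells and 1.01 (adjusted p = 0.085) without replicate 3. NUSAP1, a microtubule-bundling protein, had 719, 763 and 754 CPM, against 373 to 499.6 CPM (adjusted p = 0.0061, and 0.057 without replicate 2).

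Centromere and passenger genes gave 1 call each at 10 in the second experiment. CENPA, the centromeric histone H3 variant, had 131, 128 and 132 CPM, against 45.2 to 94.4 CPM (median 59.0) in controls (1.00 ± 0.24, adjusted p = 0.021). BIRC5, survivin of the chromosomal passenger complex, had 193, 267 and 339 CPM, against 119.5 to 206 CPM (median 156), with 1 treated well inside the control range (0.77 ± 0.19, adjusted p = 0.031). Both calls were lost when some single wells were left out, CENPA without any 1 of the 3 treated wells (adjusted p = 0.078 to 0.11) or control 1 or 1.1 (0.058 and 0.052). BIRC5 was lost without treated replicate 2 (0.15) or 3 (0.38) or control 2.1 (0.077) or 3 (0.065). The 7 chromosome genes had no call and a median of 0.62, with all 7 above 0. Of all 14 mitosis calls, AURKA, CCNB1, CDC20, KIF2C, PTTG1 and UBE2C held when any 1 library was left out. The number called was 9 to 15 over those settings, with 9 without replicate 3 of the treated wells.

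At 3.33 at 24 h, 6 of the 71 rose and none fell, against 15 rises (0.13%) and 4 falls (0.0347%) of 11539 genes and groups that did not overlap in 4.33%, with a list median of 0.46 and 59 members above 0. The 6 were CCNB1, CCNB2, HMMR, NEK2, PTTG1 and ASPM, a spindle pole protein. CCNB2 had 368, 483 and 424 CPM, all above the controls' 175 to 253 CPM (1.08 ± 0.18, adjusted p = 0.00015). CCNB1, CCNB2 and PTTG1 held when any 1 library was left out. ASPM, with 453, 162 and 209.8 CPM against 87.8 to 176 CPM in controls (adjusted p = 0.045), was lost without replicate 1 (0.74) or any of controls 1.1 (0.076), 2 (0.085), 2.1 (0.12) and 3 (0.060). HMMR was lost without replicate 1 (0.21) and NEK2 without replicate 3 (0.38).

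In the third experiment 5 of 71 mitosis genes rose (AURKA, HMMR, NEK2, PTTG1 and CEP55) and 3 fell (CDK1, PKMYT1 and SPC25), against 218 rises (1.4%) and 166 falls (1.06%) of 15596 genes, 2.46% in all. Groups did not overlap in 3.73% of the 15596. The list median was 0.25, with 50 of 71 above 0. Without replicate 3, 5 of 72 rose (AURKA, CCNB1, CCNB2, NEK2 and CEP55) and none fell, against 0.508% and 0.0918% of 16348 genes, with a median of 0.36 and 56 above 0. The summed level was 8068, 8061 and 5715 CPM with Alisertib and 5829 to 7079 CPM with DMSO, with replicates 1 and 2 above every DMSO well and replicate 3 below them all. Without Alisertib replicate 1, 1 gene of the list was called higher, without replicate 2 none, and without DMSO 1 or 6, 3.

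Single genes of the third experiment showed the same split between wells. CCNB2 had 210.0, 211 and 98.4 CPM with Alisertib, against 104 to 145 CPM (median 124) with DMSO (0.50 ± 0.16, adjusted p = 0.068, and 0.79 ± 0.16, adjusted p = 0.0040 without replicate 3). CEP55, needed for the final cut of cytokinesis, had 42.7, 41.2 and 15.6 CPM, against 8.87 to 22.1 CPM (median 17.7) (1.04 ± 0.27, adjusted p = 0.022, and 1.36 ± 0.29, adjusted p = 0.0065 without replicate 3). CDK1 had 99.7, 101 and 51.5 CPM, against 129 to 162 CPM (median 139), below every DMSO well in all 3 Alisertib wells. Its log2 change was -0.74 ± 0.15 (adjusted p = 0.00086), and -0.48 ± 0.16 (adjusted p = 0.18) without replicate 3. SPC25 of the kinetochore had 145, 131 and 64.1 CPM, against 177 to 229 CPM (adjusted p = 0.00055, and 0.15 without replicate 3). The calls of CEP55, HMMR, NEK2, PTTG1 and PKMYT1 were each lost without Alisertib replicate 1, with adjusted p = 0.22, 0.21, 0.36, 0.10 and 0.20. CEP55, HMMR, NEK2 and PTTG1 were also lost without replicate 2, with 0.16, 0.097, 0.086 and 0.090. HMMR, PTTG1 and PKMYT1 were lost without replicate 3 as well, with 0.15, 0.072 and 0.43, and HMMR and NEK2 without several single DMSO wells (adjusted p up to 0.077).

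In the first experiment 5 of 71 rose and none fell, against 50 rises (0.372%) and 11 falls (0.0819%) of 13438 genes. With the wells of both plates pooled, groups did not overlap in 5.39% of those genes. Single genes of this experiment are compared plate by plate throughout, which is a looser separation. Its share over all genes is not given. The list median was 0.27, with 56 of 71 above 0, and the summed level was 11920 and 11848 CPM with MLN8237 and 8731 to 10628 CPM with DMSO. CDC25C, the phosphatase that activates CDK1, had 21.9 CPM on plate 1, where DMSO wells had 2.44 to 10.2 CPM, and 32.5 CPM on plate 2, where they had 4.59 to 7.60 CPM (2.1 ± 0.40, adjusted p = 0.0019). CDC25B, its relative, had 108 CPM (DMSO 67.1 to 85.3 CPM) and 239 CPM (DMSO 105 to 129.7 CPM) on the 2 plates (0.82 ± 0.20, adjusted p = 0.027). CENPA had 61.9 CPM (DMSO 19.1 to 24.9 CPM) and 37.1 CPM (DMSO 7.09 to 18.6 CPM) (1.47 ± 0.30, adjusted p = 0.0039). On both plates each of these lay above its DMSO wells.

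CCNB2 in the first experiment had 279 CPM on plate 1 (DMSO 107 to 138 CPM) and 96.4 CPM on plate 2 (DMSO 43.23 to 71.1 CPM), again above its plate's wells (1.00 ± 0.23, adjusted p = 0.018). BORA, the cofactor with which Aurora A activates PLK1, had 32.3 CPM (DMSO 3.83 to 13.8 CPM) and 5.13 CPM (DMSO 0.442 to 8.03 CPM), above its DMSO wells on plate 1 only (adjusted p = 0.031). With 2 treated wells, leaving out 1 changed much: 2 of these genes were called without the plate 1 well and none without the plate 2 well. CCNB2 then had adjusted p = 0.38 and 0.20, CENPA 0.19 and 0.11, and BORA 0.70 and 0.18, without the plate 1 and the plate 2 well in turn. CDC25B and CDC25C were lost without the plate 2 well (0.96 and 0.40), and BORA without 1 DMSO well of plate 1 (0.11). CDC20 had 309 CPM (DMSO 135 to 182 CPM) and 378 CPM (DMSO 169 to 219 CPM), just short of the threshold (0.97 ± 0.26, adjusted p = 0.051).

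**Figure D2:**
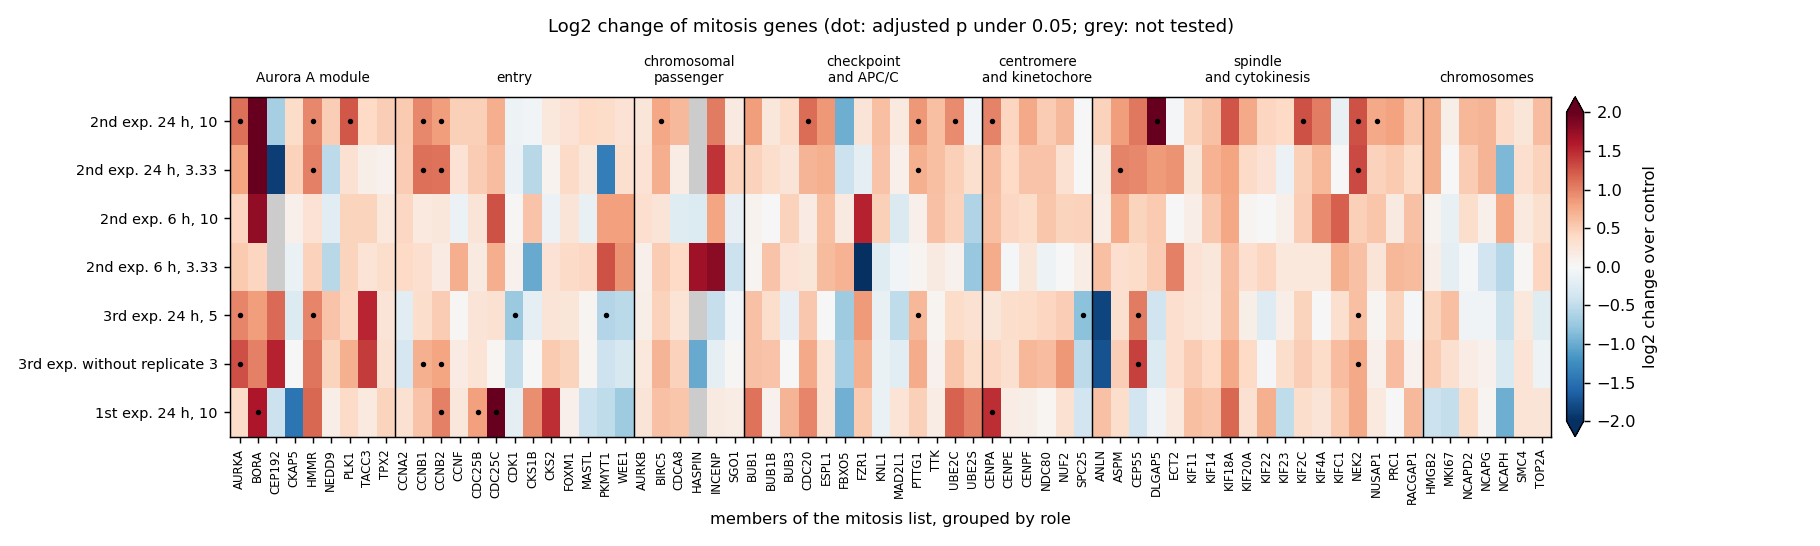
Log2 change against control for the genes of the mitosis list, grouped by role (columns), in each comparison of alisertib with its control (rows: both doses at 24 h and at 6 h in the second experiment, the third experiment with all wells and without replicate 3, and the first experiment). Colour gives the log2 change, and most cells of the 24 h rows are above 0, 63 of 71 at 10 in the second experiment and 56 of 71 in the first.

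Across the 3 experiments at 24 h, which share no control wells, 46 of 71 mitosis genes (64.8%) were above 0 in all 3 when replicate 3 of the third was left out, against 1566 of 10426 genes (15.0%). With replicate 3 the count was 41 of 71 (57.7%), against 1584 of 10397 genes (15.2%). CCNB2 was called in all 3 experiments without replicate 3. No other mitosis gene was called in all 3.

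**Figure D3:**
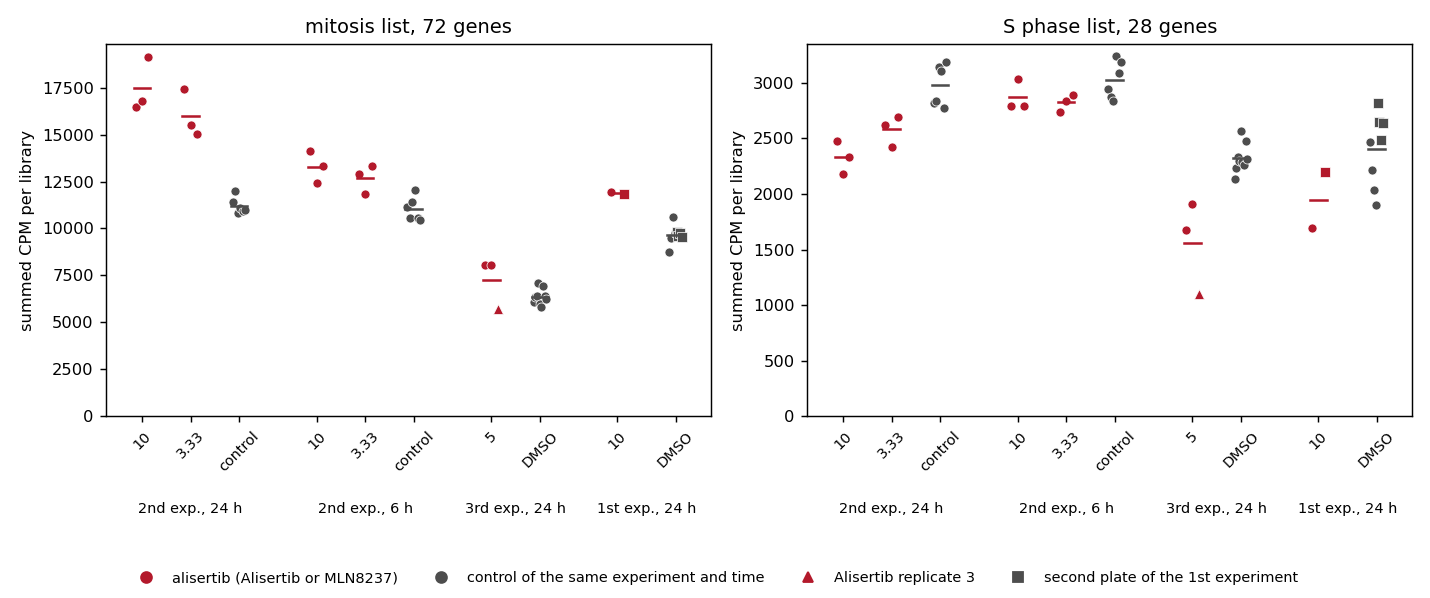
Summed CPM of the mitosis list and of the S phase list in every alisertib and control library, with each treated group left of its control, lines for means, the triangle for Alisertib replicate 3 and squares for the second plate of the first experiment. The mitosis sum at 24 h in the second experiment is 16492 to 19151 CPM at 10, above 10840 to 11976 CPM in controls, while the S phase sum is 2182 to 2479 CPM at 10, below 2776 to 3191 CPM in controls.

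The S phase list, of MCM helicase subunits, PCNA and enzymes of nucleotide supply, had a summed level of 2182 to 2479 CPM at 10 and 2426 to 2695 CPM at 3.33, against 2776 to 3191 CPM in controls at 24 h in the second experiment. No member was called, and the median log2 changes were -0.42 and -0.22 over 27 genes. In the first experiment the sum was 1695 CPM on plate 1, where DMSO wells had 1905 to 2465 CPM, and 2194 CPM on plate 2, where they had 2484 to 2817 CPM. Here too no member was called, with a median of -0.43 and 2 of 28 above 0. In the third experiment the sum was 1674, 1907 and 1100 CPM with Alisertib, against 2134 to 2564 CPM with DMSO, and 7 of 27 members fell (median -0.55), beside 1.06% of all genes. Without replicate 3 none was called, 4 of 27 were above 0 and the median was -0.38.

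PCNA, the sliding clamp of DNA polymerase, had 169.6, 168 and 65.6 CPM with Alisertib, against 229 to 324 CPM with DMSO (-0.93 ± 0.20, adjusted p = 0.0019, and 0.25 without replicate 3). FEN1, which removes RNA primers' flaps, had 10.3, 26.7 and 16.2 CPM, against 31.5 to 42.3 CPM (median 39.4) (-1.07 ± 0.24, adjusted p = 0.0040). TYMS, thymidylate synthase, had 60.7, 108 and 45.9 CPM, against 120.0 to 199 CPM (-1.08 ± 0.29, adjusted p = 0.027). In all 3 genes every Alisertib well was below every DMSO well. FEN1 was lost without replicate 1 (0.14) or 3 (0.081), and TYMS without replicate 1 (0.16) or 3 (0.36).

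H2AX, the histone variant phosphorylated at DNA breaks, had the largest called fall among genes of at least 30 CPM in the third experiment. It had 39.0, 36.1 and 37.4 CPM with Alisertib, against 90.5 to 148 CPM (median 110.1) with DMSO (-1.61 ± 0.22, adjusted p = 4.7e-07). All 3 wells were alike and far below DMSO, and the change without replicate 3 was -1.6 ± 0.27 (adjusted p = 9.8e-05). In the second experiment H2AX had 75.2, 64.0 and 65.8 CPM at 10, within the 40.6 to 85.5 CPM of controls (0.16 ± 0.33, adjusted p = 0.91).

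Of the genes outside the mitosis list, CRABP2 (chr1:156699606-156705784), which carries retinoic acid to its nuclear receptors, fell at both doses in the second experiment. It had 93.5, 79.4 and 119 CPM at 10 and 153, 150.4 and 169.6 CPM at 3.33, against 243 to 320.3 CPM (median 294) in controls at 24 h. The treated wells did not reach the control range, and those at 10 lay below those at 3.33. The log2 changes were -1.58 ± 0.20 (adjusted p = 2.8e-08) and -0.88 ± 0.18 (adjusted p = 0.0050). The call at 10 held when any 1 library was left out, and that at 3.33 was lost without replicate 1 (0.080) or 2 (0.059). CRABP2 in the third experiment had 32.4, 29.6 and 20.2 CPM with Alisertib, against 50.6 to 88.7 CPM (median 65.5) with DMSO. The change was -1.24 ± 0.23 (adjusted p = 0.00038), and -1.07 ± 0.27 (adjusted p = 0.035) without replicate 3. On the plates of the first experiment it had 65.2 CPM (DMSO 108 to 157 CPM) and 24.5 CPM (DMSO 35.3 to 94.6 CPM), below the DMSO wells on both plates, and it was not called (-1.02 ± 0.30, adjusted p = 0.11).

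RET (chr10:43077069-43130351), the receptor of GDNF-family ligands in sympathetic neurons, had 131, 88.2 and 167 CPM at 10 at 24 h in the second experiment, against 226 to 299 CPM (median 286) in controls. The groups were well apart (-1.12 ± 0.17, adjusted p = 1e-05), and the call held when any 1 library was left out. At 3.33 RET was at 190.0, 205 and 191 CPM, below all controls but not called (-0.50 ± 0.16, adjusted p = 0.25). In the first experiment it had 138 CPM (DMSO 230.3 to 256 CPM) and 208 CPM (DMSO 333 to 442 CPM). That fall was -0.86 ± 0.17 (adjusted p = 0.0019), with 0.071 and 0.20 without the plate 1 and the plate 2 well in turn. In the third it was at 91.2, 69.7 and 130.2 CPM, against 108 to 131 CPM with DMSO, and was not called (adjusted p = 0.25, and 0.094 without replicate 3).

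H19 (chr11:1995176-2001266), an imprinted long noncoding RNA, had 667, 539.7 and 544 CPM at 10 and 587, 646 and 518 CPM at 3.33, against 1027 to 1237 CPM (median 1134) in controls. It fell alike at both doses (-0.96 ± 0.15, adjusted p = 6.9e-06, and -0.96 ± 0.14, adjusted p = 1.4e-05). In the third experiment it had 220.3, 217 and 1499 CPM, against 292 to 484 CPM (median 404) with DMSO. Replicates 1 and 2 were below every DMSO well and replicate 3 far above them, so that the log2 change was 0.70 ± 0.22 (adjusted p = 0.076) with all wells and -0.85 ± 0.18 (adjusted p = 0.0039) without replicate 3. The first experiment gave -0.53 ± 0.22 (adjusted p = 0.36).

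ADAM12, PNRC1 and ADM2 were called in all 3 experiments over all wells, and were singled out for that. ADAM12, a membrane metalloprotease, had 35.3, 26.4 and 21.2 CPM with Alisertib, against 38.9 to 89.8 CPM with DMSO in the third experiment (-1.1 ± 0.26, adjusted p = 0.0065). It had 43.0, 54.4 and 40.2 CPM at 10, against 73.3 to 103 CPM in controls in the second (-0.92 ± 0.24, adjusted p = 0.040). Its level in the first was 47.1 CPM (DMSO 84.9 to 113 CPM) and 65.6 CPM (DMSO 144 to 179 CPM) (-1.15 ± 0.26, adjusted p = 0.018). All treated wells were below their controls.

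PNRC1, a coactivator of nuclear receptors, had 103, 84.5 and 156 CPM against 53.4 to 67.3 CPM with DMSO in the third experiment, and 169.7, 183 and 145 CPM against 75.1 to 114 CPM in controls in the second. PNRC1 in the first had 158 CPM (DMSO 74.1 to 95.3 CPM) and 153 CPM (DMSO 66.3 to 82.1 CPM). Its log2 changes were 0.91 ± 0.15 (adjusted p = 6.7e-05), 0.80 ± 0.21 (adjusted p = 0.046) and 1.02 ± 0.21 (adjusted p = 0.0038). ADM2, a secreted peptide of the calcitonin family, was scarce. It had 6.62, 4.33 and 11.6 CPM with Alisertib against 0.700 to 3.64 CPM with DMSO, and 18.3, 12.5 and 17.4 CPM at 10 against 0.578 to 6.92 CPM in controls. In the first experiment it had 15.9 CPM (DMSO 0 to 5.20 CPM) and 14.3 CPM (DMSO 0 to 2.65 CPM). Its log2 changes were 1.62 ± 0.34, 2.56 ± 0.63 and 2.68 ± 0.56 (adjusted p = 0.0019, 0.027 and 0.0049).

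Each of these calls was lost on leaving out some single wells. Without replicate 3 the third experiment no longer called ADAM12 (adjusted p = 0.15), PNRC1 (0.065) or ADM2 (0.19). In the second each was lost without any 1 of the 3 treated wells (adjusted p = 0.082 to 0.28 for ADAM12, 0.051 to 0.29 for PNRC1 and 0.077 to 0.15 for ADM2), with log2 changes that stayed near those over all wells (-0.81 to -1.09, 0.70 to 0.90 and 2.48 to 2.73). Leaving out control 1, 3 or 3.1 for ADAM12 (up to 0.11), 1.1, 2.1 or 3 for PNRC1 (up to 0.094), or 1, 1.1 or 2.1 for ADM2 (up to 0.069) ended them too. In the first they were lost without the plate 1 well (0.071, 0.097 and 0.23) or the plate 2 well (0.67, 0.20 and 0.076).

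Genes called in 2 experiments, singled out after their values were seen, included further cell cycle genes. PRR11, a cell cycle regulator, had 449, 409.6 and 512 CPM at 10, against 253 to 290.5 CPM (median 266) in controls in the second experiment (0.76 ± 0.14, adjusted p = 0.00078). In the first it had 492 CPM (DMSO 253 to 283 CPM) and 619.6 CPM (DMSO 266 to 388 CPM) (0.91 ± 0.18, adjusted p = 0.0031). TROAP, which takes part in spindle assembly, had 207, 261 and 210.3 CPM at 10, against 118 to 149.7 CPM in controls (adjusted p = 0.012), and 190.0 and 176 CPM on the 2 plates, against 106 to 147 CPM and 70.0 to 80.8 CPM with DMSO (adjusted p = 0.0080). DEPDC1, which peaks in mitosis, had 144, 239 and 142 CPM at 10, against 63.6 to 90.5 CPM in controls (adjusted p = 0.00044). In all 3 genes every treated well lay above its controls. TROAP was lost in the second experiment without replicate 2 (0.24) and in the first without the plate 2 well (0.53). PRR11 was lost in the first without either treated well (0.19 and 0.11), and DEPDC1 in the second without replicate 2 (0.16). DEPDC1 in the first had 98.6 CPM (DMSO 31.0 to 48.8 CPM) and 56.5 CPM (DMSO 22.3 to 32.9 CPM) (1.25 ± 0.29, adjusted p = 0.018), lost without either treated well (0.46 and 0.12). None of these 3 genes was called in the third experiment, with log2 changes of 0.40 for PRR11, 0.36 for TROAP and 0.16 for DEPDC1 (adjusted p = 0.38, 0.28 and 0.82).

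Both the second experiment and the third showed falls of RGS4 and RGS5, which damp G protein signalling, and of GLRX2, a mitochondrial glutaredoxin. RGS4 had 235, 252 and 261 CPM at 10, against 412 to 503 CPM (median 455) in controls (-0.85 ± 0.16, adjusted p = 0.00064), with the groups far apart. With Alisertib it had 128, 121 and 58.1 CPM, against 149 to 331 CPM (median 203) with DMSO (-1.04 ± 0.19, adjusted p = 0.00022, and 0.064 without replicate 3). GLRX2 had 62.9, 74.8 and 66.1 CPM with Alisertib, against 100.3 to 128 CPM with DMSO (-0.79 ± 0.15, adjusted p = 0.00042), and this call held when any 1 library was left out. In the second it had 102, 115 and 116 CPM against 137 to 241 CPM (adjusted p = 0.032), and was lost without any 1 treated well (0.13 to 0.21) or any of 4 controls (0.054 to 0.11). RGS5 changed by -0.43 ± 0.09 with Alisertib (0.30 as adjusted p without replicate 3) and -0.44 ± 0.09 at 10 (0.078 without replicate 3).

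STMN4, a neuronal stathmin that binds tubulin, rose in the third and first experiments. It had 39.0, 36.8 and 45.4 CPM with Alisertib, against 13.0 to 20.8 CPM (median 18) with DMSO (1.16 ± 0.22, adjusted p = 0.00036), and the call held when any 1 library was left out. In the first it had 58.0 CPM (DMSO 32.2 to 47.5 CPM) and 151 CPM (DMSO 40.0 to 79.1 CPM) (0.93 ± 0.24, adjusted p = 0.038), lost without either treated well (0.079 and 0.86) or DMSO well 4 of plate 1 (0.063) or 3 of plate 2 (0.090). In the second it was not called (46.2, 75.7 and 97.8 CPM at 10 against 34.6 to 71.6 CPM in controls, adjusted p = 0.44). STMN2, its relative, rose in the first experiment, with 2352 CPM (DMSO 1287 to 2056 CPM) and 3264 CPM (DMSO 1348 to 1689 CPM) (adjusted p = 0.0055, and 0.77 without the plate 2 well).

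Over all genes the experiments were weakly alike. Across genes, which are not independent, Pearson's r of the log2 changes was 0.158 between the second (10, 24 h) and first experiments over 10549 genes. It was 0.109 between the third and second over 10759 genes and 0.127 between the third and first over 11634 genes. Among genes with at least 30 CPM in a group of each comparison r was 0.410 (3504 genes), 0.273 (3441 genes) and 0.289 (3147 genes). Without replicate 3 the values over all genes were 0.0973 between the third and second experiments and 0.113 between the third and first. Among genes of at least 30 CPM they were 0.289 and 0.292 without it. Low counts add scatter to each change, and these values share each experiment's libraries.

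Shared calls were few, and all went the same way. The third and second experiments shared 14, which is 5.04% of the third's 278 calls and 26.9% of the second's 52 among genes tested in both. The third and first shared 12 (4.04% of 297 and 21.1% of 57), and the second and first 9 (17.0% of 53 and 17.6% of 51). Without replicate 3 the third and second shared 9 (17.3% of 52 each), among them AURKA, CCNB1, CCNB2, NEK2, CRABP2 and H19.

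**Figure D4:**
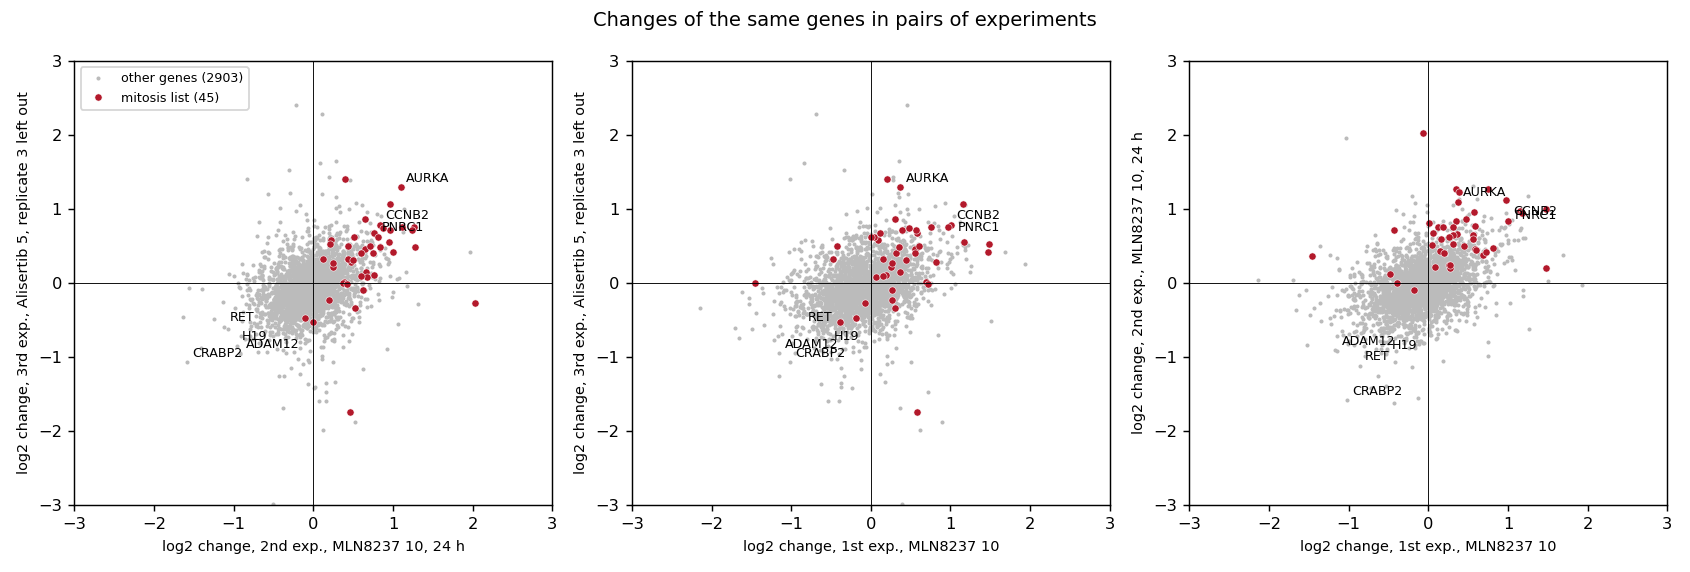
Log2 change of each gene at 24 h in 1 experiment against its log2 change in another, for each pair of the 3 experiments (the third without replicate 3; 2948 genes with at least 30 CPM in a group of each comparison). The 45 coloured points are mitosis genes and the grey points all others. Of the 45, 37 lie above 0 in both the second experiment and the third, 34 in both the first and the third, and 39 in both the first and second.

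The ATF4 program, genes of the response to amino acid and endoplasmic reticulum stress, had 7 of 23 members up in the third experiment (median 0.74), beside 1.4% of all genes, and 2 without replicate 3 (median 0.45), beside 0.508%. In the second it had 2 of 22 up at 10 (median 0.45), beside 0.347% of all genes, and none at 3.33 (median 0.14) at 24 h, and in the first none of 23 (median 0.32). At 6 h 1 of 22 was up at 10 (PSAT1; median 0.50, 19 above 0), beside 0.0436% of all genes, and none at 3.33 (median -0.01). DDIT3, the transcription factor CHOP, had 55.2, 40.1 and 144 CPM with Alisertib, against 22.2 to 32.1 CPM (median 24.4) with DMSO. All 3 wells were above DMSO (1.61 ± 0.19, adjusted p = 7.4e-09, and 0.90 ± 0.20, adjusted p = 0.0094 without replicate 3), and the call held when any 1 library was left out. STC2, stanniocalcin 2, had 34.9, 27.4 and 28.8 CPM, against 9.75 to 23.5 CPM (0.95 ± 0.19, adjusted p = 0.0011), and held likewise. HMOX1, heme oxygenase 1 of the NRF2 list, had 32.4, 26.7 and 20.7 CPM, against 5.55 to 14.2 CPM (1.64 ± 0.33, adjusted p = 0.0011). In the second experiment HMOX1 had 29.0, 38.2 and 15.5 CPM at 10 against 1.16 to 13.2 CPM (adjusted p = 0.034), a call lost without replicate 1 (0.14) or 2 (0.40) or control 1 (0.053), 1.1 (0.060) or 2.1 (0.094).

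CHAC1, an ATF4 target that degrades glutathione, was the gene called between the 2 doses at 24 h, 1 of 11539 genes tested (0.00867%). It had 69.8, 58.1 and 65.8 CPM at 10 and 11.9, 6.33 and 34.1 CPM at 3.33, and controls had 6.35 to 28.2 CPM (median 15.3). The 3 wells at 10 lay above all others, and those at 3.33 lay in or near the control range. The change of 10 over 3.33 was 1.91 on the log2 scale (95% interval 1.17 to 2.65, adjusted p = 0.021), and that of 10 over control was 2.07 ± 0.30 (adjusted p = 2.6e-06). ASNS, asparagine synthetase, had 236, 291 and 240.5 CPM at 10, against 109.6 to 198 CPM in controls (0.67 ± 0.16, adjusted p = 0.025). It was lost without replicate 2 (0.28) or control 1 (0.083).

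The other genes differed between doses by less than the test could call, with intervals that leave room for sizeable differences. For AURKA the change of 10 over 3.33 at 24 h was 0.31 (95% interval -0.16 to 0.79, adjusted p = 0.87), and for CCNB1 it was -0.14 (-0.48 to 0.19, adjusted p = 0.93). For PLK1 it was 0.92 (0.25 to 1.60, adjusted p = 0.67) and for KIF2C 0.80 (0.29 to 1.32, adjusted p = 0.56). Among the falls it was -0.70 for CRABP2 (-1.15 to -0.26), -0.61 for RET (-1.01 to -0.22) and -0.78 for ADAM12 (-1.33 to -0.24), none of them called (adjusted p = 0.56, 0.56 and 0.66). Unadjusted p was under 0.05 for 766 genes in this contrast. At 6 h 1 of 11460 genes was called between the doses, lower at 10 (0.00873%): KIAA0825, which 1 well at 3.33 carries.

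After 6 h the mitosis list held no call at either dose, in fits where 9 of 11460 genes were called at 10 (0.0785%; 0.0436% higher and 0.0349% lower) and 2 at 3.33 (0.0175%). Groups did not overlap in 3.42% of genes at 10 and 2.39% at 3.33. Its median log2 change was 0.34 at 10 and 0.29 at 3.33, with 60 and 56 of 71 members above 0. The summed level was 12439 to 14131 CPM at 10 and 11842 to 13342 CPM at 3.33, against 10436 to 12044 CPM in controls, above the controls at 10 and overlapping them at 3.33. AURKA had 128, 111 and 128 CPM at 10 and 119.6, 161 and 105 CPM at 3.33, against 77.3 to 108 CPM (median 88.0) in controls at 6 h. The 3 wells at 10 lay above all controls, and neither dose was called (0.43 ± 0.22, adjusted p = 0.71, and 0.52 ± 0.22, adjusted p = 0.76). CCNB1 had 299, 260.3 and 310.1 CPM at 10 and 298, 295 and 375 CPM at 3.33, against 199 to 309.6 CPM in controls (0.19 ± 0.15, adjusted p = 0.83, and 0.34 ± 0.15, adjusted p = 0.77). PLK1 had 41.3, 39.2 and 22.1 CPM at 10 and 32.8, 32.3 and 39.4 CPM at 3.33, against 18.8 to 33.5 CPM (adjusted p = 0.82 and 0.90).

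The calls at 6 h at 10 named by the rule were outside mitosis. PSAT1, an enzyme of serine synthesis in the ATF4 list, had 1548, 1593 and 1607 CPM, against 953 to 1217 CPM (median 1096) in controls (0.54 ± 0.10, adjusted p = 0.0084). Its wells were clear of the controls, and the call was lost without replicate 2 (0.089) or 3 (0.066). SCG2, the granule protein secretogranin II, had 335, 380.1 and 399 CPM, against 476 to 1348 CPM (median 616) (-0.98 ± 0.22, adjusted p = 0.036). PTDSS1, phosphatidylserine synthase, had 392, 272 and 412 CPM, against 444 to 609 CPM (median 565) (-0.59 ± 0.13, adjusted p = 0.031). YPEL3 (1.79 ± 0.35), SH2D3C (2.22 ± 0.48) and the ubiquitin ligase ITCH (1.85 ± 0.40) rose and the nuclear pore protein AHCTF1 (-2.70 ± 0.60) fell, with adjusted p = 0.0084 for the first and 0.031 for the others. All 7 named calls at 6 h were lost on leaving out at least 1 library, and 2 to 8 genes in all were called in those settings. KIAA0825 and NDUFC2, the 2 calls at 3.33, each rest on 1 well (214, 7.32 and 7.23 CPM, and 41.6, 424 and 76.3 CPM).

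The 24 h and 6 h changes at 10 differed in 5 of 12121 genes (0.0413%) by the interaction of treatment with time, 3 of them with the higher change at 24 h (0.0248%) and 2 with the lower (0.0165%). For CRABP2 the log2 change was -1.58 at 24 h and -0.26 at 6 h, a difference of -1.31 ± 0.25 (adjusted p = 0.0020). For H19 it was -0.96 at 24 h and 0.12 at 6 h, a difference of -1.06 ± 0.20 (adjusted p = 0.0020). At 6 h H19 had 1505, 1849.8 and 1957 CPM at 10, against 1498 to 1916 CPM in controls, an overlap that was absent at 24 h. PTTG1 had 1369.9, 1283 and 1276 CPM at 6 h, against 1117 to 1285 CPM in controls, and its difference was 0.78 ± 0.17 (adjusted p = 0.037). AURKA and CCNB1 were not called in this test, with differences of 0.68 ± 0.30 (adjusted p = 0.69) and 0.78 ± 0.21 (adjusted p = 0.29). Of 72 mitosis genes 55 had a difference above 0 (median 0.30), against 6069 of all 12121 genes. The 6 h and 24 h comparisons of the second experiment share no wells, and their log2 changes correlated at r = 0.0905 over 11167 genes and 0.224 over the 4710 genes of at least 30 CPM, with no shared call.

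MYCN (chr2:15940550-15947004), the amplified driver gene of this line, was not called in any comparison. At 24 h in the second experiment it had 525, 338 and 516 CPM at 10 and 452, 591 and 1141 CPM at 3.33, against 609 to 1316 CPM (median 864) in controls. The 3 wells at 10 lay below all controls and 2 of 3 at 3.33 did. At 10 the mean was 459 ± 106 CPM (SD, n = 3), against 912 ± 251 CPM in controls (SD, n = 6), with a log2 change of -0.99 (95% interval -1.73 to -0.26, adjusted p = 0.27). At 3.33 the change was -0.33 (-1.03 to 0.37, adjusted p = 0.83).

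At 6 h MYCN had 518, 845 and 1016 CPM at 10 and 478, 312 and 479 CPM at 3.33, against 599.9 to 1937 CPM (median 786) in controls. Here it was the lower dose whose wells all lay below the controls (-1.26, -1.97 to -0.55, adjusted p = 0.42), while the change at 10 was -0.36 (-1.02 to 0.31, adjusted p = 0.87). MYCN in the third experiment had 505, 639 and 466 CPM with Alisertib, inside the 341 to 814 CPM of DMSO (median 478). The change was -0.01 (-0.70 to 0.69, adjusted p = 1), and 0.09 ± 0.41 without replicate 3. In the first it had 230.0 CPM on plate 1 (DMSO 127 to 199 CPM) and 193 CPM on plate 2 (DMSO 49.6 to 149 CPM), above the DMSO wells of both plates (0.75, -0.39 to 1.89, adjusted p = 0.71). The sign of its estimate thus differed between the second experiment and the first, with no change called. Whether the experiments differ was not tested.

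Genes around MYCN gave no call that held. The MYC network list, of MYC family members and their partners, had 1 of 14 members up in the third experiment, beside 1.4% of all genes, and none without replicate 3. It had none in the second or first, with medians of 0.10 at 10, 0.53 at 3.33 and 0.12 in the first. Of the MYC target list, genes of ribosome and nucleotide production, none was called against control in any experiment. Its median log2 change was -0.32 in the third experiment, -0.17 at 10 and 0.09 at 3.33 at 24 h in the second, and -0.11 in the first, beside medians of all genes of -0.01 to -0.04.

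Single calls stood in several other lists, in comparisons where 1.4% of all genes rose and 1.06% fell in the third experiment, 0.347% and 0.13% at 10 in the second, and 0.372% and 0.0819% in the first. The p53 target list had 2 of 21 members up in the third experiment and none without replicate 3, and none in the second or first. Adrenergic identity, YAP and TEAD targets, the BCL2 family, interferon response, secreted senescence factors and the unfolded protein response held no call against control in any of the 3 experiments at 24 h. Some of their medians were nevertheless as far from 0 as that of the mitosis list, among them -0.65 for YAP and TEAD targets (3 of 12 above 0) and 0.54 for secreted senescence factors (7 of 9) in the first. Heat shock had 2 falls in the third experiment (none without replicate 3) and 1 at 10 in the second, and cholesterol biosynthesis 1 rise in the third. Mesenchymal state had 1 rise and 1 fall in the third (none without replicate 3) and 1 rise at 10 in the second. The neurite and neuronal list had 2 rises and 1 fall in the third (1 rise without replicate 3), 1 fall at 10 in the second, and 2 rises and 1 fall in the first. NRF2 targets had 1 rise and 2 falls in the third (1 rise without replicate 3) and 1 rise at 10 in the second. Replication-dependent histones, whose copies are nearly identical, had 2 rises in the third (median 0.98 over 8 genes; 1 rise and 0.26 over 9 without replicate 3) and 1 at each dose in the second. In the markers of other cell types, 1 of 7 fell in the third experiment (median -0.55) and none without replicate 3 (median -0.20).

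**Figure D5:**
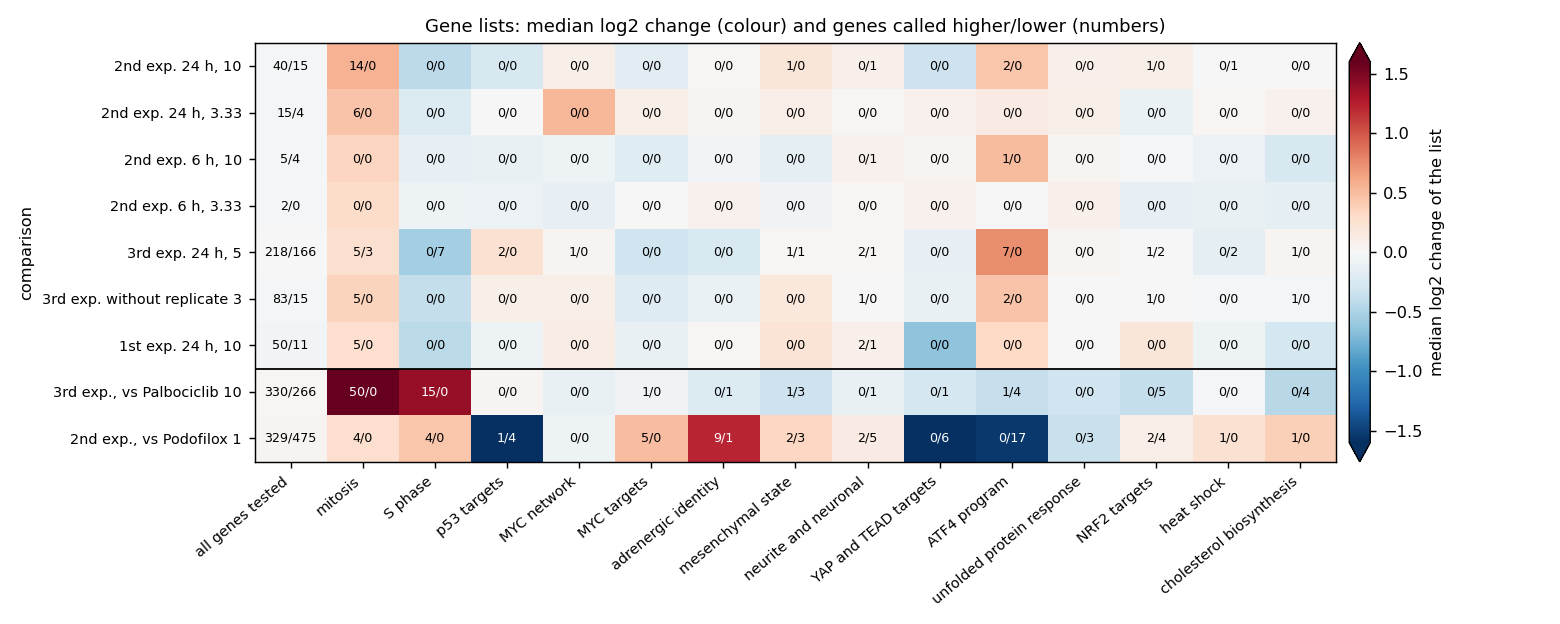
Median log2 change of each gene list (columns) in each comparison (rows), as colour, with the numbers of members called higher and lower in each cell. The mitosis column is above 0 in every row against control (0.25 to 0.55 at 24 h), the S phase column is below 0 in the same rows, and both reach their highest values against Palbociclib (1.6 and 1.39).

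Alisertib was also set beside a compound that stops cells in G1. Palbociclib, an inhibitor of CDK4 and CDK6, was in 3 wells of the third experiment at 10, a dose that differs from Alisertib's 5. Mitosis genes were higher with Alisertib in 50 of 71 cases and lower in none, with a median log2 difference of 1.6, where 330 of 15596 genes were higher (2.12%) and 266 lower (1.71%), 3.82% in all. Without replicate 3 the count was 50 of 72, where 2.75% of 16348 genes were called, 1.8% higher and 0.948% lower. Of the S phase list 15 of 27 were higher (median 1.39). These differences also hold the change with Palbociclib itself. Against DMSO, the medians with Alisertib were 0.25 for the mitosis list and -0.55 for the S phase list. AURKA had 67.7, 111 and 36.8 CPM with Alisertib, against 25.4, 16.7 and 28.1 CPM with Palbociclib (1.61 ± 0.29, adjusted p = 6.2e-05). CCNB1 had 414, 354 and 128 CPM, against 78.3, 101 and 87.7 CPM (1.75 ± 0.24, adjusted p = 1e-07), and PLK1 46.0, 34.7 and 17.7 CPM, against 9.15, 7.58 and 9.23 CPM (1.92 ± 0.34, adjusted p = 4.7e-05). Every Alisertib well, replicate 3 included, was above every Palbociclib well in the 3 genes, and the calls held without any 1 Alisertib library. The share of all genes separated in this way is not given for this contrast. CCNB1 had 208 to 275 CPM with DMSO, above every Palbociclib well and above Alisertib replicate 3. MYCN had 505, 639 and 466 CPM with Alisertib, against 844, 635 and 1033 CPM with Palbociclib (-0.64, 95% interval -1.50 to 0.21, adjusted p = 0.50).

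Podofilox, which blocks microtubule assembly and can halt cells in mitosis, was in 3 wells of the second experiment at 1 for 24 h. Against it MLN8237 at 10 gave 329 genes higher (2.85%) and 475 lower (4.12%) of 11539, 6.97% in all. Of 71 mitosis genes 4 were higher (BUB3, CDK1, DLGAP5 and TOP2A) and none lower, with a median of 0.27 and 50 above 0. AURKA had 177, 185 and 204 CPM at MLN8237 10, against 109.9, 118 and 169 CPM with Podofilox (0.52, 95% interval 0.03 to 1.01, adjusted p = 0.22). CCNB1 had 576, 480.2 and 569.6 CPM, against 455, 369 and 417 CPM (0.39, 0.04 to 0.73, adjusted p = 0.20). Both genes were higher with MLN8237 in every well, by less than the test could call. The share of all genes separated in this way is not given for this contrast. PLK1 had 93.5, 75.7 and 52.1 CPM, against 62.9, 40.9 and 90.1 CPM, with overlapping wells (0.18, -0.46 to 0.82, adjusted p = 0.83). MYCN had 525, 338 and 516 CPM, against 459, 373 and 169 CPM (0.45, -0.40 to 1.30, adjusted p = 0.63).

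The compounds parted in other lists. CDKN1A, the p53 target and CDK inhibitor p21, had 6.45, 5.15 and 1.83 CPM at MLN8237 10, against 231, 148 and 191.6 CPM with Podofilox (-5.40 ± 0.44, adjusted p = 1.8e-17). Of the ATF4 list 17 of 22 were lower with MLN8237 (median -1.54), ASNS among them with 236, 291 and 240.5 CPM, against 667, 790.4 and 580.1 CPM (-1.40 ± 0.18, adjusted p = 6.2e-09). YAP and TEAD targets were lower in 6 of 13 (median -2.27). Adrenergic identity genes were higher in 9 of 19 and lower in 1 (median 1.21), with GATA3 at 402, 326 and 336 CPM, against 125, 132 and 158 CPM (1.36 ± 0.19, adjusted p = 2.2e-08). H19 and RET, which fell with MLN8237 against control, were higher with MLN8237 than with Podofilox (1.07 ± 0.17, adjusted p = 2.1e-06, and 0.95 ± 0.23, adjusted p = 0.0029). CRABP2 was alike in level, at 93.5, 79.4 and 119 CPM, against 105, 85.0 and 103 CPM (-0.02, 95% interval -0.50 to 0.46). Against control at 24 h, the list medians at MLN8237 10 were 0.45 (ATF4), -0.33 (YAP and TEAD targets) and 0.02 (adrenergic identity).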

How the data were processed

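The authors deposited raw read counts per gene, 1 table per experiment (44267 genes and 92 spike-ins in the first, 25559 genes in the second, 57728 in the third). Reads were aligned with STAR to GRCh38, per the submitters' processing notes; versions, annotation and strand setting are not given in the sources used here, so reads of overlapping and antisense genes may not be told apart. Spike-ins stayed out of library sizes. No other column of per-sample values stood in the tables (0).

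From the deposited counts, edgeR 4.0.16 in R 4.3.3 (filterByExpr with a minimum count of 10, TMM scaling, quasi-likelihood test) was fitted to all groups of an experiment together, with the plate as block in the first and with the 6 h and 24 h wells of the second fitted apart. Benjamini-Hochberg adjusted p below 0.05 over all genes tested was a call. The SE is the log2 change divided by the root of its F statistic, intervals are 95%, and CPM uses TMM-scaled library sizes. The 24 h fit of each experiment was tested on simulated counts, for 1 comparison with control each, and the outcome is not given here. For the first experiment the simulated counts held no effect of the plate, so they could not examine its plate block. The 6 h fit and the joint fit for the interaction with time were not tested in this way. DESeq2 1.42.0 was an alternative, beside other scalings, no low-count filter, fits of only the compared groups, a replicate block and leaving out each library.

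Genes named by rule were AURKA, CCNB1, PLK1 and MYCN, and every called mitosis gene. The rule also took the 8 largest rises and falls among called genes whose groups do not overlap and that reach 30 CPM. From any list with 3 or more calls it took the 3 smallest p. Not all of the genes named by the rule are described above. Among those left out are SLC25A37, the largest such rise in the third experiment (3.29 ± 0.46), and MFSD2A, the largest such fall in the first (-2.43 ± 0.42). Each of these calls was lost on leaving out 1 library (edgeR adjusted p up to 0.45 and 0.073). Some genes called in several experiments were named after their values were seen. The compound, its marker genes and the gene lists were chosen with earlier results of these data known. Replicate numbers did not pair wells in the second experiment and the third (median r of same-numbered wells 0.0018 at 24 h, -0.0005 at 6 h and 0.0065), while wells of 1 plate of the first deviated together (median r 0.545).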

Additional observations from a re-analysis of the deposited data

Results flagged for a closer look

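In the second experiment 1 of the 6 control wells at 24 h lay far from the others for CCNB1, at 216 CPM where the median was 289 CPM (gap over range 0.654). Among 64 groups of wells looked at in this way, chance flags about 1 in 20.

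The change with MLN8237 at 10 differed between 24 h and 6 h for 5 genes, by edgeR's test of the interaction. The 24 h minus 6 h difference in log2 change was -1.31 ± 0.25 for CRABP2 (adjusted p = 0.0020), -1.06 ± 0.20 for H19 (adjusted p = 0.0020) and 0.78 ± 0.17 for PTTG1 (adjusted p = 0.037). It was 3.56 ± 0.72 for AHCTF1 (adjusted p = 0.0071), which had 74.1, 30.9 and 49.4 CPM at 24 h and 10.7, 6.14 and 2.55 CPM at 6 h in treated wells. It was 1.54 ± 0.32 for HIST1H2BK (adjusted p = 0.012), a histone gene with near-identical copies that could share its reads.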

How the results depend on the processing

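Shallow libraries and 2 or 3 wells a group limit these comparisons, and of the named calls 8 of 48 in the third experiment, 13 of 39 at 10 and 6 of 14 at 3.33 at 24 h in the second, 0 of 7 at 10 at 6 h and 0 of 28 in the first held whichever single library was left out. With only the compared groups in the fit, fewer samples set the spread, and the third experiment had 77 calls (1 mitosis gene higher), the first 28, and both 6 h comparisons 0. The legacy quasi-likelihood test gave 3 mitosis genes higher in the third experiment and, over the compared groups, 18 calls in the first. The replicate block left 306 calls and 1 mitosis gene higher in the third experiment. The first experiment without its plate block had 4 calls, 1 of them a mitosis gene. DESeq2 gave 88 and 35 calls at 10 and 3.33 at 24 h, 1 at 3.33 at 6 h, 9 for the interaction with time and, over the compared groups, 108 in the first experiment. Without the low-count filter there were 92 and 55 calls at 24 h, 10 at 3.33 at 6 h, 100 in the first experiment (8 mitosis genes higher), 6 and 19 between doses at 24 h and 6 h, and 12 for the interaction. For these settings the cause was not tested. The correlations between experiments were higher, at 0.273, 0.289, 0.410 and 0.224, over genes of at least 30 CPM, and 0.289 and 0.292 without Alisertib replicate 3 as well.

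Leaving out 1 library gave 98 to 412 calls in the third experiment (98 without Alisertib replicate 3) and 0 to 5 mitosis genes higher. In the second it gave 32 to 58 at 10 (32 without replicate 2), 9 to 15 of them mitosis genes higher, 12 to 22 at 3.33 (12 without replicate 1) with 4 to 7, and 2 to 8 and 1 to 3 at 6 h. In the first it gave 4 to 70 (24 and 4 without the plate 1 and the plate 2 well) with 0 to 6. Between doses it gave 0 to 3 at 24 h and 1 to 3 at 6 h, and for the interaction 1 to 6. Against Palbociclib it gave 395 to 460 with 42 to 50 mitosis genes, and against Podofilox 553 to 623.

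Directions turned for MYCN in the third experiment, at 0.04 with DESeq2 and with RLE scaling, 0.01 with only the compared groups, 0.07 with the replicate block, and -0.15 to 0.09 on leaving out 1 library (0.06 without DMSO 2.1). They turned for H19 there (-0.85 without replicate 3, up to 1.11 without replicate 2), for RUSF1 (0 without replicate 1, up to 6.51), for ULBP1 at 10 at 24 h (-0.19 without replicate 3, 1.43 without replicate 2 and 1.78 without control 3.1), for PTTG1 in the first experiment (-0.18 without the plate 1 well, 0.92 without the other) and for PLK1 against Podofilox (-0.01 without replicate 1, up to 0.36). The fits of the first experiment over all its groups with DESeq2 and with the legacy test were not run.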
